A study of Rattus norvegicus with 39 samples.

Results

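Old rats kept on calorie restriction (CR), with lipoic acid (LA) added to the restricted diet from 12 months of age, were compared with old rats fed ad libitum (AL) throughout life. The tissue was the cerebral cortex of male BN rats (substrain BN/SsNOlaHSD), and the readout was RNA-seq read counts per gene. The comparison took the 3 pools of 28 months labelled CR switched to CR+LA, written CR>CR+LA here as a sign that the diet changed at the age given, and the 3 pools of 28 months labelled AL, so 6 of the 39 libraries of the series. Each pool held the RNA of 2 rats, which makes 12 rats in this comparison, and the pools were of different animals.

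All the rats ate ad libitum until 2 months of age and were then housed singly and assigned to diets at random. The AL rats stayed on unlimited CRM chow with no supplement. The CR>CR+LA rats received the same chow at 55% of the intake of AL-fed rats until 12 months of age, and from then until 28 months the same restricted amount with LA added at 1.5 g per kg of diet. The contrast therefore joins a lifelong restriction and a late supplement in 1 difference. To set it in context, the pools were also compared with 3 pools of 28 months on CR for life without LA, with 3 pools of 28 months on AL+LA, and with the mean of all 6 other diets of that age. These 6 diets were CR>AL+LA, CR>AL, AL+LA, CR, AL>CR and AL+LA>CR, each with 3 pools (18 in all). A limit of the groups as models is that a pool averages 2 animals and that 28-month-old rats are the survivors of their cohorts.

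CR lowers energy intake without malnutrition and is known for slower ageing in rodents, with effects on insulin and mTOR signalling, mitochondria and stress defence. LA is a sulphur-containing cofactor. Attached to protein, it swings acyl groups between the active sites of the pyruvate and 2-oxoglutarate dehydrogenase complexes and carries the aminomethyl group in the glycine cleavage system. As a free supplement its reduced form is a thiol that binds metals and feeds into the thioredoxin and glutathione systems.

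Library make-up differed between the groups, whereas their sequencing depths overlapped. Reads on genes were 4537079, 3109488 and 3753929 in AL pools 7, 8 and 9 and 5966979, 4413552 and 4659116 in CR>CR+LA pools 31, 32 and 33. A chi-square statistic per degree of freedom of 3.26 to 12.9 between pools of a group showed that none was a second copy of another pool of its group. Reads that aligned nowhere made up 33.2, 32.97 and 27.5% in the AL pools and 37.6, 38.9 and 40.4% in the CR>CR+LA pools, against 34.1 to 41.3% in the 18 pools of the other diets of 28 months. Rn28s, the 28S ribosomal RNA gene, held 0.604, 0.674 and 0.337% of gene reads in the AL pools and 2.89, 3.37 and 3.32% in the CR>CR+LA pools, against 0.439 to 3.37% in those 18. Both measures separated the groups without overlap (exact permutation test, two-sided, p = 0.1, which is the smallest that 3 pools against 3 can give).

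Markers of cortical excitatory neurons were present in every pool, though lowest in the AL pools, and AL pools 7 and 9 also held RNA that marks the cerebellum. The summed level of 8 granule cell markers was 1772, 331 and 1684 CPM (reads of a gene relative to all gene reads of its library) in AL pools 7, 8 and 9, against 230.5, 313 and 253 CPM in the CR>CR+LA pools and 219 to 367 CPM in the other 18. Gabra6, the GABA-A subunit that defines granule cells, stood at 592, 0.290 and 531 CPM in the AL pools and at 0.885, 0.479 and 0.695 CPM in the CR>CR+LA pools. For 7 Purkinje and molecular layer markers the sums were 1538, 899 and 1448 CPM in the AL pools and 823, 693 and 713 CPM in the CR>CR+LA pools. AL pool 8 stayed within the other pools for granule cell markers and lay above them for Purkinje markers. CR>CR+LA pool 32 stood apart in another way: Cdhr1, a cadherin-related gene of olfactory bulb output neurons, was at 27.3, 106 and 7.19 CPM in pools 31, 32 and 33 against 17.1, 16.2 and 21.1 CPM in the AL pools. In these bulk samples, fewer cells of a type and less RNA per cell cannot be told apart. Results are therefore also given without AL pools 7 and 9, from 1 fit of all 13 diet and age groups in which AL pool 8 alone stands for AL and is assumed to vary like the other groups. Where only a log2 value is given from that fit, it is an effect size and does not show that a call held.

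**Figure D1:**
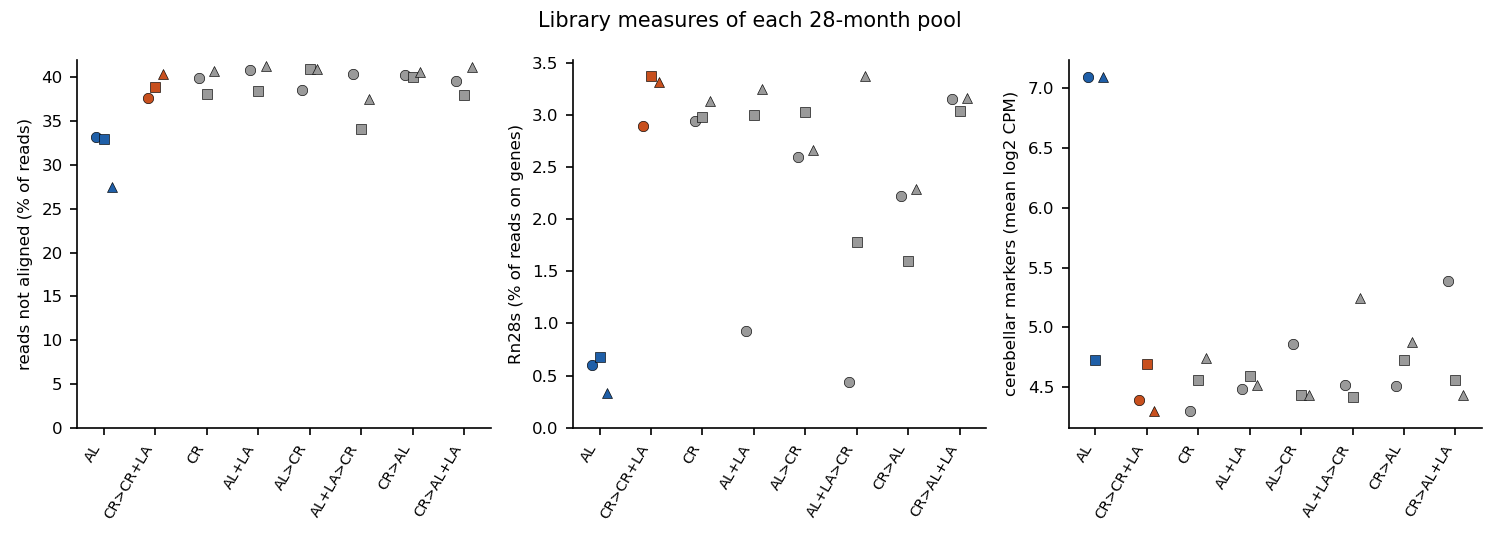
Reads not aligned (percent of all reads, left), Rn28s (percent of reads on genes, middle) and the mean log2 CPM of the 15 cerebellar markers (right, axis not from 0) in each pool of 28 months, by diet, with AL in blue, CR>CR+LA in orange and the other diets in grey. The AL pools sit lowest for unaligned reads (27.5 to 33.2%), and AL pools 7 and 9 stand above all other pools for the cerebellar markers (7.09 and 7.10).

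The 2 groups differed at 766 of the 17230 genes tested (4.45%; edgeR quasi-likelihood test, Benjamini-Hochberg adjusted p below 0.05). Of these, 499 genes (2.9% of those tested) were higher in CR>CR+LA and 267 (1.55%) lower. An unadjusted p below 0.05 was reached by 3177 genes (18.4%). The called genes had a median log2 fold change (CR>CR+LA over AL) of 0.92 where higher and -0.81 where lower, while the median over all genes tested was -0.0055. All 3 pools of one group lay outside the range of the other for 495 of the 499 genes higher and 223 of the 267 lower. Among all genes tested the pools did so for 2160 (12.5%) upwards and 1756 (10.2%) downwards.

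The calls depended on single pools and on the cerebellar markers more in one direction than the other. Leaving out 1 pool at a time gave between 250 calls (without CR>CR+LA pool 33) and 1407 (without AL pool 8), with 290 without AL pool 9, 394 without CR>CR+LA pool 32, 478 without AL pool 7 and 551 without CR>CR+LA pool 31. The share of calls that were higher was 65.1% with all pools and 49.9% without AL pool 8. In all 6 of these fits 170 of the 499 higher and 33 of the 267 lower genes were called. Without AL pools 7 and 9 together, all 499 genes kept a positive sign with a median of 0.85, whereas 249 of the 267 kept a negative sign with a median of -0.51. In that fit 80 genes were called, 60 higher and 20 lower. With the mean log2 CPM of the 15 cerebellar markers as a covariate, 405 were called, 299 higher and 106 lower. AL pool 8 lay inside the range of the CR>CR+LA pools for 2 of the 499 genes higher and 38 of the 267 lower (14.2%).

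The AL pools, more than the CR>CR+LA pools, stood away from the other old rats. For 490 of the 499 genes higher (98.2%) the CR>CR+LA mean lay within the range of the 18 pools on the other 6 diets, and for 438 of them the AL mean lay below all 18. Of the 267 genes lower, 262 (98.1%) had a CR>CR+LA mean within that range and 249 an AL mean above it. Over all genes tested the CR>CR+LA mean was within the range for 98.5% and the AL mean for 82.2%.

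**Figure D2:**
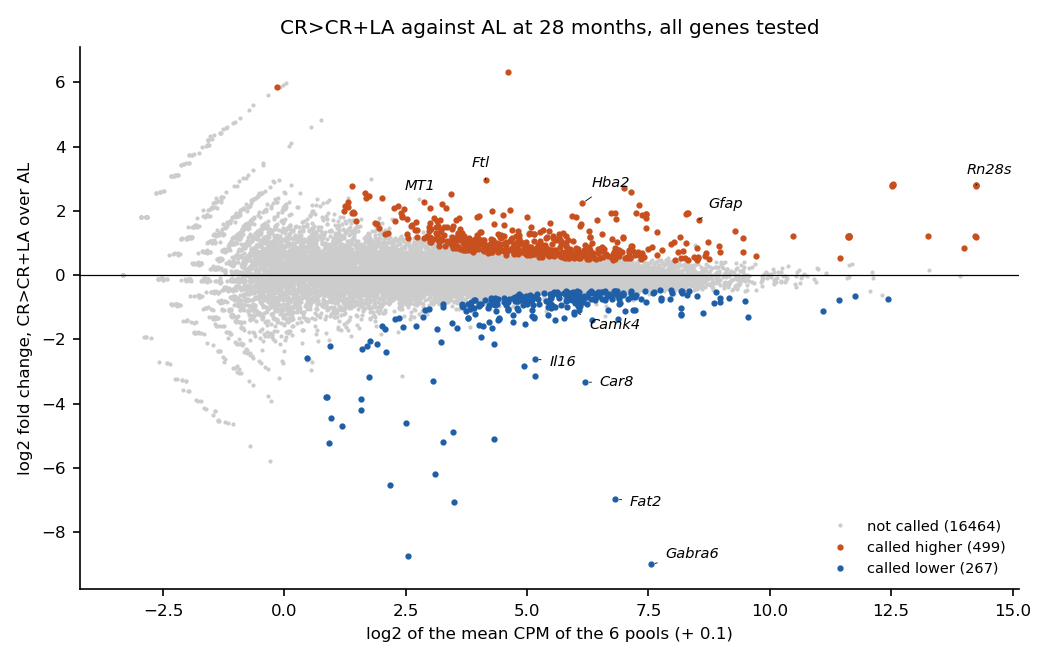
Log2 fold change of CR>CR+LA over AL (y axis) against the log2 of the mean CPM of the 6 pools (x axis), 1 point for each of the 17230 genes tested, with genes called higher in orange, called lower in blue and the rest in grey. The 499 genes called higher have a median of 0.92 and the 267 called lower a median of -0.81, with the cerebellar markers Gabra6 and Fat2 among the lowest points.

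Gene names were taken from the supplementary tables of the study, which pair 1666 of the 26123 gene IDs with a name. All 1666 stand in the study's own tables of results on these libraries, so they are not an independent choice. Of them, 560 (33.6%) were called here, 370 higher (22.2%) and 190 lower (11.4%), with a median log2 fold change of 0.32. The share of members called in each gene list below is read against these percentages, and only list members with a name could be counted.

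Gfap, Ctsb and Pcsk1n were among the higher genes with the smallest adjusted p. Gfap (ENSRNOG00000002919), the intermediate filament of astrocytes, was at 140.3, 203 and 171 CPM in AL pools 7, 8 and 9 and at 513, 649 and 551 CPM in CR>CR+LA pools 31, 32 and 33, so every restricted pool was above every AL pool. The means were 171 ± 31.3 and 571 ± 70.4 CPM (SD, n = 3 pools each), with a log2 fold change of 1.73 (SE 0.15, edgeR adjusted p = 6.02e-06). The other diets ranged from 390.1 to 862 CPM, which is also above AL. Of 5 astrocyte markers with a name, Gfap rose, and Gjb6 (connexin 30) and Fgfr3 fell. Gjb6 went from 101, 97.7 and 98.6 CPM to 46.4, 61.99 and 70.2 CPM (log2 fold change -0.74, SE 0.16, edgeR adjusted p = 0.0124, call lost without CR>CR+LA pool 31, at log2 -0.58). The remaining astrocyte markers did not pass, with log2 values of 0.50 for the potassium channel Kcnj10 and -0.0060 for the water channel Aqp4.

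Ctsb (ENSRNOG00000010331), a lysosomal cysteine protease, had pools close to each other in both groups, with 168, 184 and 168 CPM in the AL pools and 402, 386 and 394 CPM in the CR>CR+LA pools. Its log2 fold change was 1.18 with SE 0.12 and edgeR adjusted p = 3.44e-05, and without AL pools 7 and 9 the log2 value was 1.10 (edgeR adjusted p = 0.00066). Pcsk1n (ENSRNOG00000007112), which encodes proSAAS, an inhibitor of prohormone convertase 1, had a mean of 14.3 ± 3.27 CPM in AL and 49.8 ± 2.07 CPM in CR>CR+LA (SD, 3 pools each; log2 fold change 1.82, SE 0.18, edgeR adjusted p = 2.29e-05). Among 11 neuropeptide and secretory granule entries, 6 rose and none fell, with a median of 0.64. They were both IDs named Pcsk1n, Chgb (chromogranin B), Npy, Sst and Penk. Of the 6 calls, 1 held in all 6 fits without 1 pool. The call of Sst (0.77) was lost without AL pools 7 or 9 or CR>CR+LA pool 33, at log2 0.55 to 0.65, and that of Penk (0.59) was lost without AL pools 7 or 9 or CR>CR+LA pools 31, 32 or 33, at log2 0.45 to 0.73. Npy stood at 7.75, 8.70 and 12.7 CPM in the AL pools and 18.4, 21.1 and 26.2 CPM in the CR>CR+LA pools (log2 fold change 1.16, SE 0.23, edgeR adjusted p = 0.0092, call lost without CR>CR+LA pool 33, at log2 1.01). Pcp4, a calmodulin-binding peptide, was at 29.8, 46.96 and 45.4 CPM against 126, 135 and 137 CPM, and Ywhah, the 14-3-3 eta protein, at 336, 349.6 and 359.8 CPM against 913, 755 and 1027 CPM, with log2 fold changes of 1.71 and 1.36 (edgeR adjusted p = 1.64e-05 and 2.53e-05). For all of Gfap, Ctsb, Pcsk1n, Pcp4 and Ywhah the call held in each of the 6 fits without 1 pool.

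**Figure D3:**
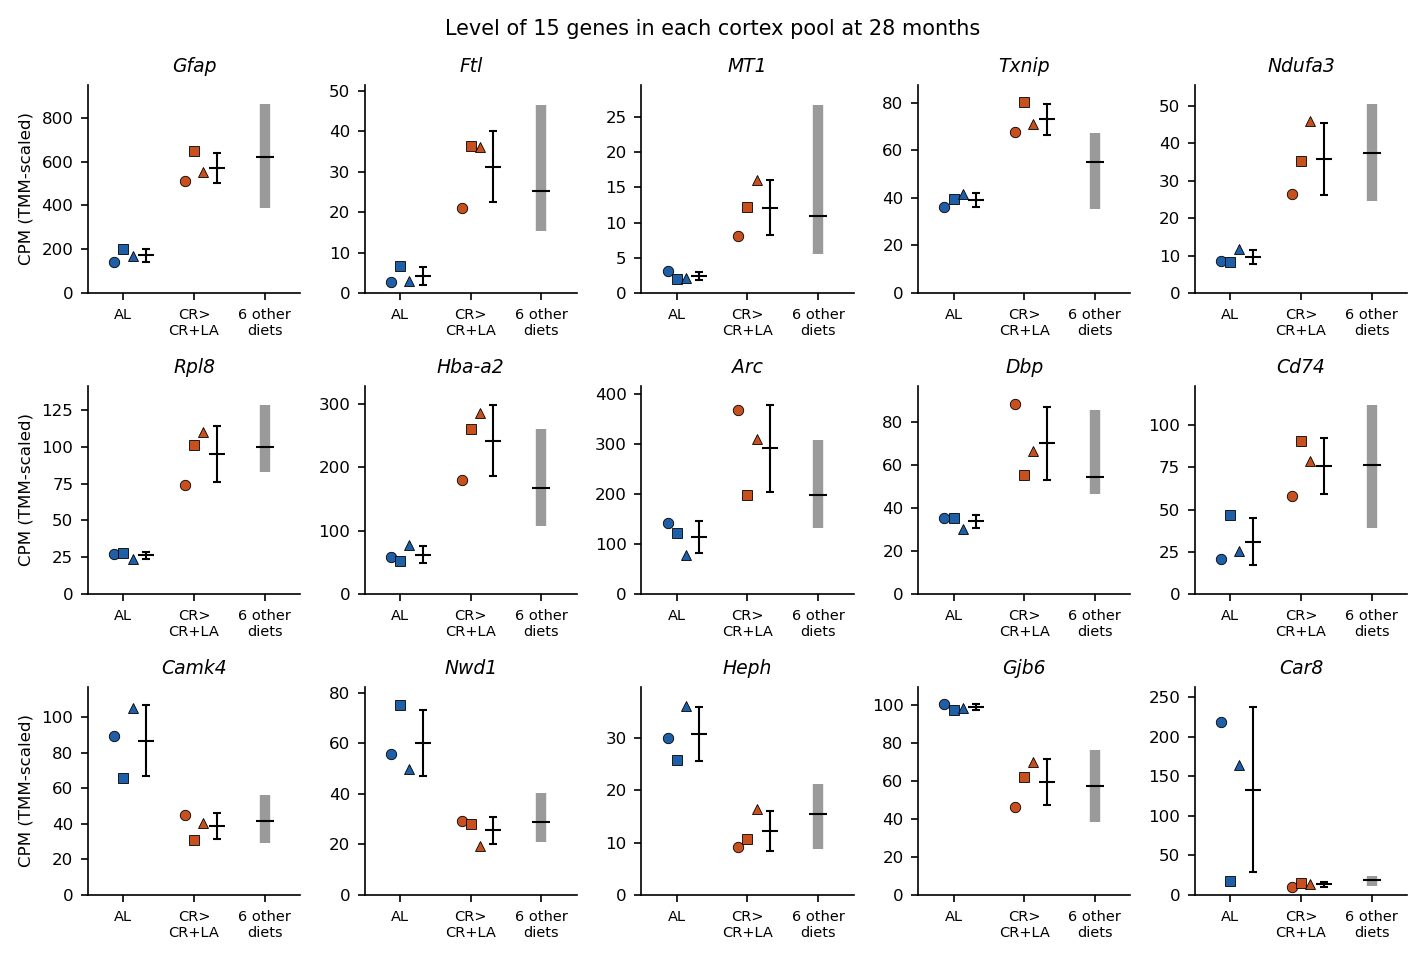
CPM of 15 named genes (y axes from 0) in AL pools 7, 8 and 9 and CR>CR+LA pools 31, 32 and 33 (circle, square and triangle in that order), with the mean and SD of each group as a line with caps and the range and median of the 18 pools of the other diets as a grey bar with a tick. For Gfap the AL pools lie at 140.3 to 203 CPM and the CR>CR+LA pools at 513 to 649 CPM, inside the range of the other diets, whereas for Car8 AL pool 8 lies far below AL pools 7 and 9.

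Genes of metal binding and iron handling were mostly higher. Of 10 with a name, 6 rose and 1 fell, with a median log2 fold change of 0.73. Metallothioneins are short, cysteine-rich proteins that bind zinc and copper. A name was held by 3 metallothionein genes, which lie close together on chromosome 19. Some genes of this family are switched on through metal response elements. The core of these elements is TGCRCNC, with R for A or G. The wider pattern TGCNCNC was searched, so a match need not be such an element. The upstream windows of the 3 genes are the 250 bases before each RefSeq gene start (GRCr8, minus strand, gene-sense 5′ to 3′). They are printed with matches of TGCNCNC on either strand in capitals:

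MT1: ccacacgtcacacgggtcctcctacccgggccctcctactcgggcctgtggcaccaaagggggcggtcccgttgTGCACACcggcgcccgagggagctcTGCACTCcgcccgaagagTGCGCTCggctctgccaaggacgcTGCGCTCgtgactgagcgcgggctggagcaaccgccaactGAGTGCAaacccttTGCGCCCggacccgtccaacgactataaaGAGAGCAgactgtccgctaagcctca

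Mt2A: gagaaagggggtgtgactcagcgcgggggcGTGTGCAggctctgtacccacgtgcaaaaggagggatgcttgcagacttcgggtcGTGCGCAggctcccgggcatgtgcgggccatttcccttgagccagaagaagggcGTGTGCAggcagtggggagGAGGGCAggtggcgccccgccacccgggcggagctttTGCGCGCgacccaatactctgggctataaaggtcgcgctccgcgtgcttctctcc

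Mt3: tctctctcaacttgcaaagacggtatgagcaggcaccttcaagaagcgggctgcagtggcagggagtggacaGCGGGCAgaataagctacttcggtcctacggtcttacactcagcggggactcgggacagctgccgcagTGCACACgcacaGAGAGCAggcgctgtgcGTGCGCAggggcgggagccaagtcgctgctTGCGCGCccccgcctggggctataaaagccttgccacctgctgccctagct

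The windows are chr19:10832976-10833225, chr19:10838709-10838958 and chr19:10856081-10856330. MT1 held 7 matches, 5 on the gene strand and 2 on the other, and 0.0598% of the 33469 RefSeq windows of 250 bases held as many or more. Mt2A and Mt3 held 5 each, a number reached by 0.370% of windows. At least 1 match stood in 43.4% of windows (14518), and a match is a description of letters, not a binding site.

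MT1 (ENSRNOG00000038047) was low in all AL pools, at 3.06, 2.03 and 2.08 CPM, and stood at 8.14, 12.2 and 15.99 CPM in the CR>CR+LA pools. The log2 fold change was 2.29 with SE 0.35 and edgeR adjusted p = 0.00128, and the call held in all 6 fits without 1 pool. Mt2A was at 15.9, 13.05 and 16.4 CPM against 19.3, 33.03 and 37.1 CPM, with a log2 fold change of 0.96 (SE 0.23, edgeR adjusted p = 0.0269), and Mt3, the brain metallothionein, at 75.9, 80.9 and 105 CPM against 152, 109 and 176 CPM, with a log2 fold change of 0.74 (SE 0.18, edgeR adjusted p = 0.0242). The call of Mt2A was lost without AL pools 7 or 9 or CR>CR+LA pools 32 or 33, at log2 0.76 to 1.005, and that of Mt3 lost without AL pool 7 or CR>CR+LA pools 31 or 33, at log2 0.57 to 0.71. All 3 kept a positive value without AL pools 7 and 9, of 2.55, 1.18 and 0.85, which are effect sizes only because 1 AL pool is left.

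Iron genes went both ways. Ftl (ENSRNOG00000031506), an ID for ferritin light chain, the iron-storing shell subunit, had 2.65, 6.67 and 3.01 CPM in the AL pools and 21.1, 36.4 and 36.2 CPM in the CR>CR+LA pools. The means were 4.11 ± 2.22 and 31.2 ± 8.78 CPM (SD, n = 3 pools each), with a log2 fold change of 2.97 (SE 0.32, edgeR adjusted p = 3.57e-05). Ferritin genes have processed copies, so reads of this ID may be shared with them. Tf (transferrin, the iron carrier) rose from 283, 375 and 374 CPM to 623, 676 and 628 CPM (log2 fold change 0.90, SE 0.14, edgeR adjusted p = 0.00138). Heph, hephaestin, a copper ferroxidase of iron export, fell from 29.98, 25.8 and 36.1 CPM to 9.21, 10.8 and 16.5 CPM (log2 fold change -1.35, SE 0.23, edgeR adjusted p = 0.00281), and the pools did not overlap. The log2 values of Ftl, Tf and Heph without AL pools 7 and 9 were 2.21, 0.78 and -1.10.

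Genes on the thiol and peroxide defence list were mostly higher. Of 13 with a name, 8 rose and none fell, with a median of 0.68. Txnip (ENSRNOG00000021201), an inhibitor of thioredoxin that also limits glucose uptake, was at 36.1, 39.4 and 41.7 CPM in the AL pools and 67.8, 80.4 and 70.9 CPM in the CR>CR+LA pools. The log2 fold change was 0.90 with SE 0.14 and edgeR adjusted p = 0.00205. For Txnip all 3 CR>CR+LA pools also exceeded all 18 pools of the other diets, which ranged from 35.2 to 67.1 CPM. The difference from the mean of these 6 diets was 0.41 (SE 0.11, unadjusted p = 0.000571, edgeR adjusted p = 0.437), so it did not pass over all genes. Txnrd1, thioredoxin reductase 1, rose from 27.5, 31.9 and 28.001 CPM to 48.9, 45.2 and 49.6 CPM (log2 fold change 0.72, SE 0.15, edgeR adjusted p = 0.0125, call lost without AL pool 9 or CR>CR+LA pool 33, at log2 0.68).

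Glutathione transferases join glutathione to electrophiles. Gstp1 was at 22.2, 30.4 and 20.6 CPM in the AL pools and 64.1, 61.7 and 62.8 CPM in the CR>CR+LA pools (log2 fold change 1.37, SE 0.17, edgeR adjusted p = 0.000186). Gstm1 was at 49.6, 55.95 and 58.5 CPM against 89.9, 111 and 103 CPM (log2 fold change 0.88, SE 0.14, edgeR adjusted p = 0.0021). Msrb2, a mitochondrial methionine sulphoxide reductase, stood at 6.32, 5.80 and 4.86 CPM against 16.3, 17.95 and 15.1 CPM (log2 fold change 1.53, SE 0.24, edgeR adjusted p = 0.00149). These 3 calls held in all 6 fits without 1 pool, and Gsta1, Gstt3 and Prdx5 were also called higher. Of 8 targets of the stress regulator Nrf2, 3 rose (Ftl, Txnrd1 and Fth1) and none fell, with a median of 0.58.

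Of the members of the enzyme complexes that depend on LA as a cofactor, 1 had a name, and it did not pass the test. Amt (ENSRNOG00000050214), the aminomethyltransferase of glycine cleavage, was at 18.4, 17.4 and 17.4 CPM in the AL pools and 16.3, 12.4 and 14.1 CPM in the CR>CR+LA pools. Its log2 fold change of -0.31 (SE 0.20, edgeR adjusted p = 0.429) did not pass. Of 3 genes of lipoate synthesis and attachment, Ndufab1 (ENSRNOG00000018129), the mitochondrial acyl carrier protein on which lipoate's octanoyl chain is built, rose from 26.1, 23.5 and 27.5 CPM to 51.9, 57.4 and 64.9 CPM. The log2 fold change was 1.17 with SE 0.16 and edgeR adjusted p = 0.000507, and the value was 1.30 without AL pools 7 and 9. Ndufab1 is also a subunit of complex I. Bola3 and Iscu, of iron-sulphur assembly, had 0.56 and 0.22 and did not pass. Of the kinases and phosphatases of these complexes, 2 had a name, Bckdk for the branched-chain and Pdp1 for the pyruvate dehydrogenase complex, and neither was called (median 0.12). Of TCA cycle genes, 2 had a name, Sdhb and Idh1, and neither was called (median 0.33, and 0.65 without AL pools 7 and 9). Sdhb, the iron-sulphur subunit of succinate dehydrogenase, had 0.49 (edgeR adjusted p = 0.115). It was called higher without AL pools 7 and 9 (0.85; edgeR adjusted p = 0.0248) and with the cerebellar marker covariate (0.62; edgeR adjusted p = 0.0386).

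Many small subunits of the respiratory chain rose. Of 43 nuclear-encoded subunits of complexes I, III, IV and ATP synthase with a name, 21 rose and 1 fell, 41 had a positive value, and the median was 0.63, which was 0.64 without AL pools 7 and 9. By complex, 8 of 19 rose in complex I (median 0.58), 4 of 6 in complex III (0.74), 6 of 10 in complex IV (0.70) and 3 of 8 in ATP synthase (0.61). The calls of 9 of the 21 held in all 6 fits without 1 pool. Ndufa3 of complex I was at 8.57, 8.41 and 11.8 CPM in the AL pools and 26.6, 35.2 and 45.9 CPM in the CR>CR+LA pools (log2 fold change 1.89, SE 0.23, edgeR adjusted p = 0.000203). Cox6b1 of complex IV, at 8.36, 7.83 and 9.49 CPM against 18.1, 18.4 and 20.9 CPM, had a log2 fold change of 1.15 (SE 0.21, edgeR adjusted p = 0.00496). Atp5i of ATP synthase, at 22.6, 14.5 and 27.5 CPM against 37.9, 54.3 and 74.9 CPM, had a log2 fold change of 1.35 (SE 0.24, edgeR adjusted p = 0.00474).

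The exception was Cox7a2l2, an ID related to the complex IV subunit family, which fell from 903, 790.0 and 1496 CPM to 513, 373 and 401 CPM (log2 fold change -1.31, SE 0.20, edgeR adjusted p = 0.0013). Among 3 genes of the mitochondrial genome with a name, COX2, subunit 2 of cytochrome oxidase, rose from 2084, 2188 and 2580.0 CPM to 3489.5, 3199 and 3229.7 CPM (log2 fold change 0.53, SE 0.13, edgeR adjusted p = 0.0311, call lost without AL pool 7 or CR>CR+LA pools 31, 32 or 33, at log2 0.47 to 0.55). The list had a median of 0.41.

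Ribosomal protein genes showed the same lean. Of 64 cytosolic entries, 24 rose and 5 fell, with a median of 0.52 (0.61 without AL pools 7 and 9), and of 17 mitochondrial ones, 5 rose and none fell, with a median of 0.68. Rpl8 (ENSRNOG00000032635) was at 27.3, 28.1 and 23.8 CPM in the AL pools and 73.8, 101 and 110.3 CPM in the CR>CR+LA pools, with a log2 fold change of 1.84 (SE 0.17, edgeR adjusted p = 1.13e-05). Rpl35 was at 24.5, 30.7 and 30.3 CPM against 76.1, 103 and 121 CPM (log2 fold change 1.81, SE 0.18, edgeR adjusted p = 2.12e-05). Rplp1, a ribosomal stalk protein, went the other way, from 467, 289.6 and 870.3 CPM to 244, 257 and 225 CPM (log2 fold change -1.17, SE 0.26, edgeR adjusted p = 0.0159, call lost without AL pool 9 or CR>CR+LA pool 33, at log2 -1.13 to -0.66), and its value without AL pools 7 and 9 was -0.26. Ribosomal protein genes have many near-identical processed copies, between which read assignment is uncertain. Of 3 proteasome genes, 1 rose (Psmd7) and none fell, with a median of 0.50.

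Rn28s also stands among the called genes, at 5593, 6072 and 2927 CPM in the AL pools and 30536, 35584 and 35841 CPM in the CR>CR+LA pools (log2 fold change 2.80, SE 0.22, edgeR adjusted p = 1.35e-06). The authors removed ribosomal RNA from the pooled RNA before sequencing, so its counts are of what was left. How far this removal differed between libraries was not tested. Together with the genes whose log2 CPM tracks Rn28s over all 39 libraries with a Pearson r from 0.8 upwards, it makes 27 genes. All 27 were called higher. The 39 libraries include the pools compared here, between which Rn28s itself differed, so the choice of genes favours such calls. The count is therefore a description of these genes and not a separate result. Leaving these 27 genes out before scaling gave 733 calls. Genes below the cut of 0.8 also varied with Rn28s, to different degrees. Over the 39 libraries r was 0.74 for Ftl, 0.70 for Fth1, 0.64 for Gfap and 0.61 for Pcsk1n (ENSRNOG00000007112). It was 0.40 for Ctsb, 0.34 for Gstp1 and 0.18 for Pcp4. The part of Rn28s and of the share of unaligned reads in the gene groups above was not tested.

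Receptors for glutamate and GABA were mostly lower, by an amount that shrank without AL pools 7 and 9. Of 15 entries with a name, 1 rose and 9 fell, with a median of -0.68 that became -0.23 without AL pools 7 and 9. By list, ionotropic glutamate receptors had 1 of 7 higher and 4 lower (median -0.68), and GABA-A subunits and GABA synthesis 3 of 5 lower (-0.57). Gria4, an AMPA receptor subunit, was at 361, 186 and 380.2 CPM in AL pools 7, 8 and 9 and 170.5, 195 and 189 CPM in the CR>CR+LA pools, so AL pool 8 fell among the restricted pools. Its log2 fold change was -0.75 with SE 0.20 and edgeR adjusted p = 0.0422, which became -0.013 without those pools. Grik2, a kainate receptor subunit, was at 207, 134 and 205 CPM against 122, 118 and 104 CPM (log2 fold change -0.67, SE 0.16, edgeR adjusted p = 0.0249) and went to -0.23. The call of Gria4 was lost without AL pools 7 or 9 or CR>CR+LA pools 31, 32 or 33, at log2 -0.79 to -0.59. That of Grik2 was lost without AL pools 7 or 9 or CR>CR+LA pools 32 or 33, at log2 -0.70 to -0.57.

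Other members stayed further from 0 without AL pools 7 and 9. Gabra2, a GABA-A subunit of the forebrain, stood at 151, 176 and 125 CPM in the AL pools and 100.2, 88.1 and 116 CPM in the CR>CR+LA pools, with a log2 fold change of -0.57 (SE 0.15, edgeR adjusted p = 0.0445), and at -0.79 without them. Its call was lost without AL pools 7 or 8 or CR>CR+LA pools 31, 32 or 33, at log2 -0.69 to -0.46. Homer3, a scaffold of metabotropic glutamate receptors, had a log2 value of -1.49, and of -1.02 without those pools. Grina, a glutamate receptor-associated protein, was the member that rose (log2 fold change 0.78, SE 0.15, edgeR adjusted p = 0.00792), with 0.62 without them. With the cerebellar marker covariate Homer3 shrank to -0.37 and was not called (edgeR adjusted p = 0.745). Gabra2 had -1.02 and Grina 0.77 with that covariate.

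Signalling genes behind the receptors split. Of 10 postsynaptic scaffold and kinase genes, 3 rose and 2 fell, with a median of -0.22. Camk4, a calmodulin-dependent kinase abundant in cerebellar granule cells, fell from 89.1, 65.5 and 105 CPM to 45.1, 30.9 and 40.6 CPM (log2 fold change -1.16, SE 0.18, edgeR adjusted p = 0.0018), with -0.75 without AL pools 7 and 9. Nrgn, neurogranin, a calmodulin-binding protein of cortical excitatory neurons, rose from 64.7, 97.1 and 66.4 CPM to 175, 131 and 162 CPM (log2 fold change 1.04, SE 0.17, edgeR adjusted p = 0.00222), with 0.69 without them. Of 16 synaptic vesicle release genes, 7 rose and 1 fell, with a median of 0.35. Syt1, the calcium sensor of release, was at 145, 209.6 and 153 CPM against 343, 285 and 369.7 CPM (log2 fold change 0.97, SE 0.16, edgeR adjusted p = 0.0022). Stx1a and Rab3b rose too, with log2 values of 1.38 and 0.98. Without AL pools 7 and 9 Rab3b had 1.11 and was still called (edgeR adjusted p = 0.0465), while Syt1 had 0.67 and Stx1a 0.86 and neither was (edgeR adjusted p = 0.187 and 0.458). With the cerebellar marker covariate Stx1a had 0.87 (edgeR adjusted p = 0.128). The gene that fell was Unc13c, a release-priming protein, with -1.10, and -0.18 without AL pools 7 and 9.

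The cerebellar lists themselves had the lowest medians of all lists, with 7 of 8 granule cell markers (median -2.36) and 6 of 7 Purkinje markers (median -1.10) lower and none higher. Without AL pools 7 and 9 the medians were -0.14 and -0.25. Car8, a carbonic anhydrase-related protein of Purkinje cells, shows this in its pools, at 218, 17.4 and 164 CPM in AL pools 7, 8 and 9 and 10.4, 15.8 and 14.1 CPM in the CR>CR+LA pools. Among genes called lower that are on no cerebellar list, Nwd1 was at 55.7, 75.1 and 49.8 CPM against 29.2, 28.003 and 19.5 CPM (log2 fold change -1.23, SE 0.19, edgeR adjusted p = 0.00149), and Htra1, a secreted serine protease, at 139, 168 and 153 CPM against 70.99, 80.7 and 97.1 CPM (log2 fold change -0.89, SE 0.15, edgeR adjusted p = 0.00281). For these, AL pool 8 was the highest of the AL pools, and without AL pools 7 and 9 the values were -1.55 and -1.02.

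Immediate early genes are transcribed within minutes of neuronal firing. All 11 with a name had a positive value, 6 of them called, with a median of 0.92. Of the 6 calls, 2 held in all 6 fits without 1 pool, and the list had 0 calls without AL pools 7 and 9 (median 0.92) and 1 with the cerebellar marker covariate (median 0.52). Arc, a synaptic capsid-like protein induced by neuronal firing, was at 143, 122 and 78.9 CPM in the AL pools and 368, 197 and 310.4 CPM in the CR>CR+LA pools (log2 fold change 1.35, SE 0.22, edgeR adjusted p = 0.0022). Sik1, a salt-inducible kinase, was at 6.93, 4.06 and 4.86 CPM against 23.9, 12.4 and 17.2 CPM (log2 fold change 1.73, SE 0.29, edgeR adjusted p = 0.00256). Btg2, an antiproliferative gene, rested on 1 pool, with 83.6, 14.1 and 22.5 CPM in CR>CR+LA pools 31, 32 and 33 against 13.3, 8.41 and 7.41 CPM in the AL pools (log2 fold change 2.04, SE 0.47, edgeR adjusted p = 0.0209, call lost without AL pool 9 or CR>CR+LA pool 31, at log2 0.90 to 1.87). Egr1 (0.67), Egr3 (1.14) and Nr4a1 (1.29) were also called, and none of these calls held in all 6 fits without 1 pool. The call of Egr1 was lost without AL pool 9 or CR>CR+LA pools 31 or 33, at log2 0.54 to 0.64, that of Egr3 was lost without AL pools 7 or 9 or CR>CR+LA pools 31, 32 or 33, at log2 0.97 to 1.25, and that of Nr4a1 was lost without AL pools 7 or 9 or CR>CR+LA pool 31, at log2 0.59 to 1.39. With the covariate Egr1 had 0.33, Egr3 0.52 and Nr4a1 0.67 and none was called. Jun, Dusp6, Fosb, Egr2 and Nr4a2 did not pass.

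In the circadian list, the clock being a feedback loop in which BMAL1 and CLOCK drive their own repressors through E-boxes, 6 of 8 genes rose and 1 fell, with a median of 0.97. The list had 1 call without AL pools 7 and 9 and 2 with the covariate. Dbp, a transcription factor that is a direct clock output, was at 35.5, 35.4 and 30.1 CPM against 88.3, 55.05 and 66.3 CPM (log2 fold change 1.05, SE 0.18, edgeR adjusted p = 0.00263). Nr1d1, the repressor REV-ERB alpha, was at 9.79, 12.8 and 15.04 CPM against 33.1, 24.9 and 21.6 CPM (log2 fold change 1.09, SE 0.22, edgeR adjusted p = 0.00896). Bhlhe40, a repressor of the loop, was at 52.2, 60.6 and 49.3 CPM against 113, 91.2 and 119.8 CPM (log2 fold change 0.998, SE 0.15, edgeR adjusted p = 0.00118). These 3 calls held in all 6 fits without 1 pool. Without both AL pools 7 and 9 they were lost, at log2 values of 0.99 for Dbp, 1.062 for Nr1d1 and 0.83 for Bhlhe40 (edgeR adjusted p = 0.246, 0.31 and 0.246). With the cerebellar marker covariate they were lost too, at 0.83, 1.02 and 0.51 (edgeR adjusted p = 0.101, 0.0804 and 0.192). Per3 rose as well (17.5, 11.6 and 18.98 CPM against 35.1, 33.7 and 24.1 CPM, log2 fold change 0.93, SE 0.21, edgeR adjusted p = 0.0177, call lost without CR>CR+LA pools 31 or 32, at log2 0.84 to 0.87), as did Bhlhe41 and Hlf, and the nuclear receptor Rora fell (log2 fold change -0.73, SE 0.19, edgeR adjusted p = 0.0412, call lost without AL pools 7 or 9 or CR>CR+LA pools 31, 32 or 33, at log2 -0.82 to -0.49).

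The upstream windows of 250 bases were searched for the E-box CACGTG, which 5.59% of all windows hold, and for the D-box TTATGNAA, which 3.28% hold. Bhlhe40, Bhlhe41 and 1 of 2 Nr1d1 windows held the E-box, Dbp and Per3 held none in this window, and no D-box was found in any of them. Hlf was not matched. Restricted rats received their ration once a day in the morning, and the hour at which animals were killed was not given in the sources used here, so its part in the clock values was not tested.

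**Figure D4:**
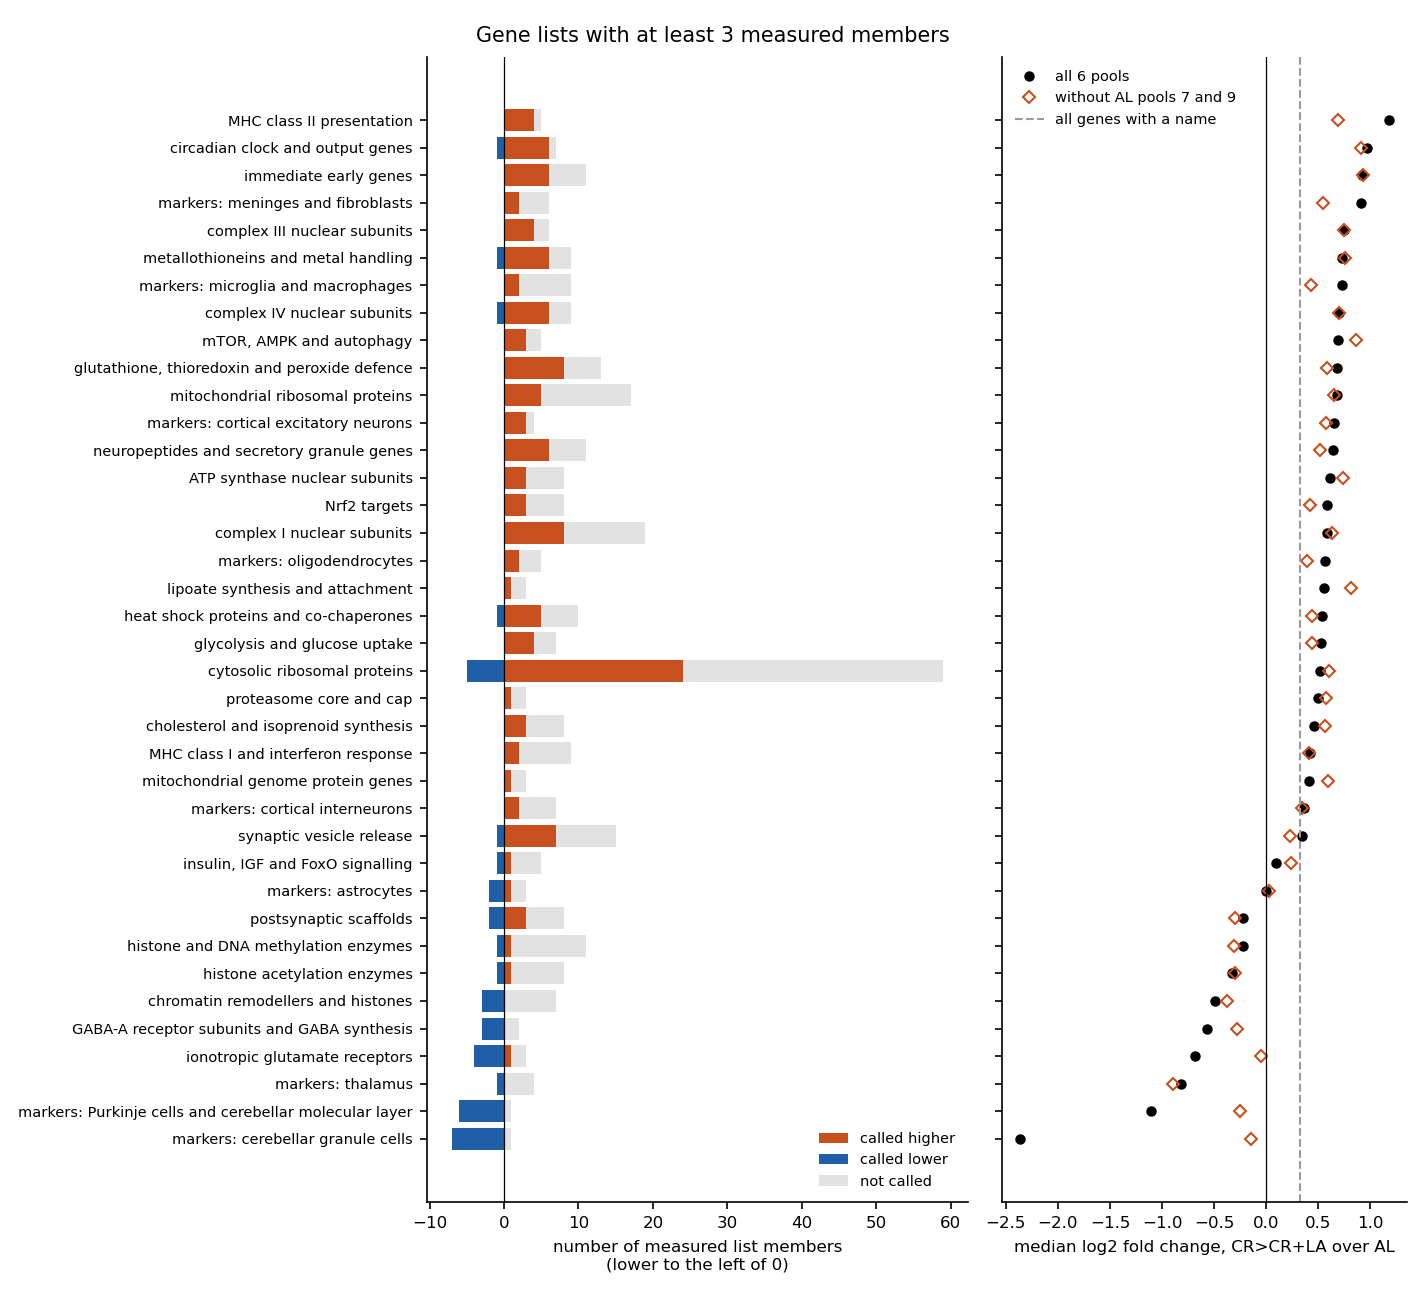
Left, the number of members called higher (orange), called lower (blue, left of 0) and not called (grey) in each reported list with at least 3 members. Right, the median log2 fold change of each list with all 6 pools (black) and without AL pools 7 and 9 (open diamonds), and that of all genes with a name as a dashed line at 0.32. The median of the granule cell markers moves from -2.36 to -0.14 without AL pools 7 and 9, while that of complex III subunits is 0.74 and 0.75.

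MHC class II genes were higher. Of 5 genes of MHC class II presentation, by which microglia and other antigen-presenting cells show peptides to T cells, 4 rose and none fell, with a median of 1.17. RT1-Ba was at 15.1, 28.4 and 21.98 CPM in the AL pools and 48.5, 64.6 and 60.5 CPM in the CR>CR+LA pools (log2 fold change 1.42, SE 0.20, edgeR adjusted p = 0.000916), and Cd74, the invariant chain, at 20.6, 46.7 and 25.7 CPM against 57.9, 90.5 and 78.8 CPM (log2 fold change 1.30, SE 0.24, edgeR adjusted p = 0.00518). AL pool 8 was the highest AL pool for both, the list median was 0.69 without AL pools 7 and 9, and none of the 4 then had an unadjusted p below 0.05. Among 9 microglia and macrophage markers 2 rose, Laptm5 (1.20) and Aif1 (0.96), with a median of 0.72. Of 9 genes of MHC class I and the interferon response, 2 rose (Ifi27 and Mx2), with a median of 0.42.

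The haemoglobin alpha IDs Hba-a2 and Hba2 both rose. Hba-a2 (ENSRNOG00000029886) was at 57.7, 52.2 and 77.1 CPM in the AL pools and 179, 261 and 286 CPM in the CR>CR+LA pools (log2 fold change 1.95, SE 0.19, edgeR adjusted p = 1.47e-05). Hba2 (ENSRNOG00000047321) was at 19.4, 27.3 and 27.1 CPM against 74.2, 137 and 135 CPM (log2 fold change 2.23, SE 0.22, edgeR adjusted p = 2.05e-05). These are near-identical copies, so reads can be split between them. Their sum was 77.1, 79.4 and 104 CPM in the AL pools, 254, 398 and 421 CPM in the CR>CR+LA pools and 161 to 383 CPM on the other diets, so CR>CR+LA pools 32 and 33 held more than any of those 18 pools. The amount of blood left in each cortex was not measured.

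Other cell type lists moved less evenly. Cortical excitatory neuron markers had 3 of 4 called higher (median 0.65), interneuron markers 2 of 7 (0.36), oligodendrocyte markers 2 of 5 (0.57) and meningeal markers 2 of 6 (0.91), none with a member called lower. Of the 7 interneuron markers 4 had a positive value, and the lowest value was -0.71. Their summed level was 718, 562 and 722 CPM in AL pools 7, 8 and 9 and 512, 600 and 552 CPM in the CR>CR+LA pools. The lowest meningeal value was -0.12. The precursor marker Bcan (0.44) and the endothelial or pericyte marker Vtn (0.83) did not pass. Of 2 ependymal markers 1 fell, Dnah11, with -1.47, and -0.39 without AL pools 7 and 9. Of 5 thalamic markers 1 fell (median -0.82), of 2 hippocampal markers 1 fell, of 2 striatal markers Penk rose, and neither olfactory bulb marker was called. No choroid plexus or hypothalamic marker had a name.

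Glucose, sterol and mTOR genes had members higher and none lower. Of 7 glycolysis and glucose uptake genes 4 rose, with a median of 0.53. Slc2a1, the glucose transporter GLUT1, was at 47.5, 58.8 and 37.95 CPM in the AL pools and 97.9, 122 and 109 CPM in the CR>CR+LA pools (log2 fold change 1.19, SE 0.16, edgeR adjusted p = 0.000616). Of 8 cholesterol synthesis genes 3 rose, Fdps, Fdft1 and Hmgcs1, with a median of 0.46. Of 5 mTOR, AMPK and autophagy genes 3 rose (median 0.69), among them Rheb, the small GTPase that activates mTORC1, at 28.1, 22.9 and 25.9 CPM against 44.6, 57.4 and 73.9 CPM (log2 fold change 1.18, SE 0.19, edgeR adjusted p = 0.00205). Of 6 insulin, IGF and FoxO genes, Pik3r1 rose (0.57) and Pdpk1 fell (-0.60), and neither call held in all 6 fits without 1 pool.

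Heat shock proteins and co-chaperones had 5 of 11 higher and 1 lower, with a median of 0.54. Both IDs named Hspa1b, the inducible HSP70, were called, the first at 3.26, 4.06 and 1.85 CPM against 7.08, 10.1 and 10.2 CPM (log2 fold change 1.57, SE 0.34, edgeR adjusted p = 0.0146, call lost without AL pool 9 or CR>CR+LA pools 32 or 33, at log2 1.30 to 1.50). No call in this list held in all 6 fits without 1 pool. Neither cold-inducible RNA-binding gene (Rbm3, Cirbp) was called, with a median of -0.057.

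Chromatin genes showed few calls. Of 9 histone acetylation genes, Meaf6 rose and Kansl1 fell (median -0.33). Of 12 histone and DNA methylation genes, Kdm4a rose and Kdm6a fell (median -0.22). Of 10 remodeller and histone genes 3 fell (median -0.49), HIST1H4B, H2afy and Chd7, and the value of Chd7, -0.94, was 0.0057 without AL pools 7 and 9. No call in these 3 lists held in all 6 fits without 1 pool. Tet3, a DNA demethylase, and Chd5 had 0.023 and 0.30 and did not pass.

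Against the old rats on CR for life without LA, from which the CR>CR+LA rats differ by the late supplement, no gene was called (0% of 17230; edgeR quasi-likelihood test), and 501 had an unadjusted p below 0.05 (2.91%). DESeq2 called 1 gene, the ID ENSRNOG00000031685, and the edgeR exact test 0. For genes with a mean of at least 10 CPM, the 95% interval of a log2 difference had a median half-width of 0.31. That is the interval of a single gene before adjustment and not a limit of detection over all genes. The genes called against AL had in this comparison a median of 0.064 where higher and -0.10 where lower. MT1 had 0.34, Gfap 0.12, Txnip 0.34, Ndufab1 0.033 and Dbp -0.049 on the log2 scale. Mt2A had -0.080, Mt3 -0.0021, Gstp1 -0.055 and Gstm1 -0.086. The median against CR was 0.0011 for the 10 genes of metal binding and iron handling. For the 13 thiol and peroxide defence genes it was -0.033. In each of these lists, 1 member had an unadjusted p below 0.05 (edgeR quasi-likelihood test). The smallest unadjusted p values among the genes named by rule belonged to both haemoglobin IDs. Hba-a2 had a log2 value of 0.73 (SE 0.17, unadjusted p = 0.000638, edgeR adjusted p = 1), and Hba2 had 0.79 (SE 0.19, unadjusted p = 0.000792, edgeR adjusted p = 1).

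Against AL+LA, whose rats ate the supplemented chow without restriction, again no gene was called (0%), and 668 had an unadjusted p below 0.05 (3.88%). The edgeR exact test and DESeq2 called 1 each, in both the ID ENSRNOG00000003119, and leaving out AL+LA pool 34 gave 5. The genes called against AL had medians of 0.069 where higher and -0.081 where lower. RT1-Da, an MHC class II gene called higher against AL (1.02), had a log2 difference of -0.73 from AL+LA and of -0.58 from CR (edgeR, unadjusted p = 0.00034 and 0.00459), neither of which passed over all genes.

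Against the mean of the 6 other diets, 2 genes were called (0.0116%), and 779 had an unadjusted p below 0.05 (4.52%). They were Cdhr1, with a log2 value of 2.05 (SE 0.32, edgeR adjusted p = 0.00273), and the ID ENSRNOG00000011672. Both rest on CR>CR+LA pool 32, and neither was called without it. The ID stood at 0.177, 142 and 0.464 CPM in pools 31, 32 and 33 and at 0 to 71.6 CPM in the 18 pools of the other diets. These 3 comparisons use the same CR>CR+LA pools, and the CR and AL+LA pools are part of the mean of 6.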

How the data were processed

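The authors removed ribosomal RNA from the pooled RNA with a kit and sequenced 75-base SOLiD reads. They aligned the reads with Bowtie (up to 2 mismatches) and obtained reads per Ensembl gene by HTSeq. They deposited 1 table of raw counts per library for each of 39 libraries. The alignment used the Ensembl rat genome Rnor_5.0, and versions of the tools are not given in the sources used here. The submitters' processing notes name Bowtie and HTSeq. The 5 closing lines of each table name no gene and were left out of library sizes and tests. In the 6 pools compared, 79.9 to 82.6% of aligned reads fell on no gene.

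Tests covered the 17230 of 26123 genes that reached 1 CPM in 3 or more of the 39 libraries. Counts were scaled by TMM and tested with edgeR 4.0.16 in R 4.3.3 (quasi-likelihood test, Benjamini-Hochberg threshold 0.05 over all genes kept), with only the pools compared in each fit. Values shown are CPM with TMM scaling over the 39 libraries. A gene is called where its adjusted p is below 0.05. Reads on genes per pool (3109488 to 5966979) set the precision: the 95% interval of a log2 fold change against AL had a median half-width of 0.34 at 10 CPM or more. Tested on simulated counts of these 6 pools (17230 genes), the fit recovered 97 of 200 genes changed by a log2 of 1, with 9 false calls. Apart from these changes, the simulated pools shared 1 mean per gene. The differences of the real pools in cerebellar markers and Rn28s were thus not modelled. The simulation therefore does not show how many calls on the real pools are false.

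Gene names came only from the study's supplementary tables, and 370 of the 1038 entries of the 53 gene lists had one. Named were the 12 called genes per direction with the smallest adjusted p and no overlap (4 for the other comparisons), up to 5 called members per list and direction (with none called, the 2 with the smallest p), and genes the study discusses for its diets. Other list members and single IDs in the text were chosen after their values were seen. The groups and lists were chosen with earlier results of these data known. Alternatives were RLE size factors, other filters, the edgeR exact test, DESeq2 1.42.0, all 13 groups in 1 fit, a cerebellar marker covariate, Rn28s left out, and pools left out. Gene positions on the authors' build were not analysed here, and a few list members and the lists that rest on them are not reported here. Promoter windows came from RefSeq (GRCr8) by symbol.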

Additional observations from a re-analysis of the deposited data

Results flagged for a closer look

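Reads that aligned nowhere lie outside the gene counts and differed between the groups. They made up 33.2, 32.97 and 27.5% of reads in AL pools 7, 8 and 9 and 37.6, 38.9 and 40.4% in CR>CR+LA pools 31, 32 and 33, a difference of 7.75 percentage points (exact permutation test, two-sided, p = 0.1, the smallest that 3 pools against 3 can give). The 18 pools of the other diets ranged from 34.1 to 41.3%.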

How the results depend on the processing

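Against AL, the 766 calls became 1302 with no filter on low counts, 405 with the cerebellar marker covariate, 80 without AL pools 7 and 9, and 250 to 1407 with 1 pool left out. Other settings stayed within 1.5 times: 767 (RLE size factors), 525 (at least 10 counts in every library, 7008 genes tested), 764 (CPM of every line), 1033 (edgeR exact test), 792 (DESeq2), 1000 (all 13 groups) and 733 (Rn28s left out). Of the named IDs, 126 kept their direction but lost the call without AL pools 7 and 9, where 1 AL pool is left, and 73 with the covariate. Against CR, calls were 24 with no filter, 1 with DESeq2 and 0 to 1 with a pool left out. Against AL+LA they were 50, 1 with the exact test, 1 with DESeq2 and 0 to 5. Against the 6 diets they were 70, 0 at 10 counts, 0 with DESeq2, 5 with the covariate and 0 to 6, with 0 without CR>CR+LA pool 32 and 6 without pool 33. The exact test was not run for this mean. The library differences (CR>CR+LA minus AL) ranged with a pool left out from 5.88 to 8.75 percentage points for unaligned reads, 2.55 to 2.81 for Rn28s, -2.63 to -1.45 for the cerebellar score (log2) and -0.29 to 0.72 for aligned reads on no gene, where the value turned to -0.29 without AL pool 9 and -0.17 without CR>CR+LA pool 31. Log2 values turned sign with the covariate for Gria4 (0.037), Gabra6 (0.068), Unc13c (0.21), Chd7 (0.15), Fat2 (0.59), Cbln1 (0.33), Neurod1 (0.26), Dnah11 (0.22), Calb2 (0.79), Tet3 (-0.051) and Chd5 (-0.20). Without AL pools 7 and 9 they did so for Gabra6 (1.20), Chd7 (0.0057), Fat2 (0.024), Neurod1 (0.28), Tet3 (-0.12) and Chd5 (-0.044). With 1 pool left out, Cdhr1 ranged from -0.054 (without CR>CR+LA pool 32) to 1.85, and Tet3 from -0.21 (without CR>CR+LA pool 31; -0.097 without AL pool 7) to 0.17. The cause of these shifts was not tested. No paired analysis was possible because each pool number occurs in a single group.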

Other observations

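The gene with the largest rise in the fit, the ID ENSRNOG00000011672 (log2 6.34, SE 1.70, edgeR adjusted p = 0.0433), stood on 1 pool: 1.22, 0.290 and 0 CPM in the AL pools and 0.177, 142 and 0.464 CPM in the CR>CR+LA pools. In that same pool 32, Cdhr1 was at 106 CPM, and Pcp4l1 had 65.8 CPM against 52.9 and 30.1 CPM in pools 31 and 33. Among genes called against AL that are on no list, Nop10, a component of the box H/ACA particles that modify ribosomal RNA, was at 8.77, 6.38 and 7.41 CPM in the AL pools and 31.3, 26.8 and 34.3 CPM in the CR>CR+LA pools (log2 fold change 2.01, SE 0.21, edgeR adjusted p = 2.69e-05), and its call held in all 6 fits without 1 pool. Dbndd2, which encodes a dysbindin-domain protein, was at 31.2, 35.9 and 37.7 CPM against 99.3, 97.4 and 104 CPM (log2 fold change 1.52, SE 0.14, edgeR adjusted p = 1.13e-05). Megf11, a transmembrane protein with EGF-like repeats, was at 28.4, 19.1 and 28.7 CPM against 10.1, 9.09 and 6.03 CPM (log2 fold change -1.59, SE 0.23, edgeR adjusted p = 0.001). With the cerebellar marker covariate Megf11 had -0.62 and was not called (edgeR adjusted p = 0.479). Its value was -1.17 without AL pools 7 and 9. Il16, an interleukin precursor with a neuronal form, was at 79.5, 15.4 and 88.2 CPM against 6.90, 11.7 and 12.1 CPM (log2 fold change -2.61, SE 0.43, edgeR adjusted p = 0.00253), with -0.60 without those pools, so AL pool 8 lay closer to the restricted pools than AL pools 7 and 9 did. Zfp238, a zinc finger repressor of the developing cortex, was at 81.4, 79.1 and 102 CPM against 51.9, 44.8 and 38.9 CPM (log2 fold change -0.95, SE 0.15, edgeR adjusted p = 0.0022).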
